A study of Cricetulus griseus with 8 samples.

Results

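The genes described here number 10: 3 enzymes of serine synthesis (Phgdh, Psat1, Psph), 6 enzymes that move one-carbon units between serine, glycine and folate (Shmt1, Shmt2, Mthfd1, Mthfd1l, Mthfd2, Aldh1l2), and the asparagine synthetase Asns. They were taken by symbol from the deposited table, which named 26776 genes, and all 10 were found there. Of these, 9 reached the mean of 10 normalized counts needed for testing, among 13494 genes tested. RNA came from LR73 cells, labelled as Chinese hamster fibroblasts that act as phagocytes, in 4 libraries of cells kept alone and 4 of cells kept together with apoptotic Jurkat cells, a human T cell lymphoma line. Per the labels, Jurkat cells received UV-C light (1500 mJ) and 4 h in culture before they met the phagocytes, and both groups were grown in alpha-MEM with 10% serum. Column names hold the letters GFP in both groups, which the labels do not explain. The series design calls the libraries biological replicates, without saying how the cultures were separated. The p-values therefore set the difference of the groups against the spread between these libraries only.

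Cells make serine from the glycolytic intermediate 3-phosphoglycerate in a chain of reactions catalysed by Phgdh, Psat1 and Psph. Shmt enzymes then split serine into glycine and a one-carbon unit carried by folate, in the cytosol and in mitochondria, and the Mthfd enzymes interconvert the folate forms. These units feed purine and thymidylate synthesis. In many mammalian cells Phgdh, Psat1, Psph, Shmt2, Mthfd2 and Asns are among the targets of Atf4, a transcription factor of the amino acid and stress response.

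Reads in named genes numbered 22716373 to 29662144 per library. Alone library 1 stood apart. Chi-square per degree of freedom against the other libraries of its group was 15.6 to 29.0, and 1.53 to 3.13 for all other pairs within a group. Pairs between the groups that did not hold this library gave 5.99 to 9.71. By this measure it lay farther from its own group than the other libraries alone lay from the co-cultures. Vim and Fn1 were abundant (at least 107843 and 23091 normalized counts in every library), while the fibroblast markers Thy1 and Col1a1 were at or near 0 (0 and at most 1.90), so the fibroblast label was met only in part. The summed T cell markers ran from 1522 to 1628 normalized counts alone and from 1372 to 1440 in co-culture, most of it from Tcf7, Themis and Lat. Of 27 such markers, 7 were at 0 in all libraries, Cd3d, Cd3g and Cd2 among them. The 20 with at most 5 reads in phagocytes alone together had 7 reads there and 51 in co-culture, with 12 higher and 1 lower, a tally that this choice by low reads alone tilts upward. The other 7 markers all had a lower mean of normalized counts in co-culture, Il2rg only barely (10.81 and 10.78). Limma called 2 of the 6 tested T cell markers lower and 0 higher, against 5.31% and 6.36% of all genes tested. Reads of the 7, not scaled for depth, numbered 6646 alone and 5378 in co-culture. Jurkat cells are human while these are counts of hamster genes, so the marker reads do not measure how much Jurkat RNA was present. The part of this trace signal in the results was not tested.

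With apoptotic cells, 4 of the 9 tested genes fell (Asns, Psph, Mthfd2 and Psat1), 1 rose (Mthfd1), and 4 did not pass the limma threshold of an adjusted p under 0.05 (Phgdh, Mthfd1l, Shmt1 and Shmt2). The called changes ran from -15.6 to -9.44% among the falls, and the rise was 9.32%. Over all genes tested, 5.31% were called lower and 6.36% higher. The median change of all called genes was -16.6% among the falls and 17.0% among the rises, larger than that of any called member. The 9 genes had at least 1135 reads in every library, while the genes tested went down to a mean of 10 normalized counts. The shares do not take this difference in reads into account. The members were chosen with earlier results of these data known, which limits what their count against these shares can show. In these bulk libraries, fewer cells that express a gene and less RNA of it per cell cannot be told apart. The median log2 fold change of the 9 genes was -0.13, against 0.001 over all genes tested. Groups did not overlap in 7 of the 9, with 5 lower and 2 higher in co-culture, against 9.72% and 11.4% of all genes tested. Without alone library 1 the count was 5 lower and 2 higher, against 12.5% and 13.4% of all genes, and Phgdh and Mthfd1l were the added calls. The count tests edgeR and DESeq2 on recovered reads called the same 5 genes as limma with all libraries, against 11.6% and 12.2% of the genes they tested, and those 5 also had an adjusted p under 0.05 in the authors' deposited table.

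**Figure D1:**
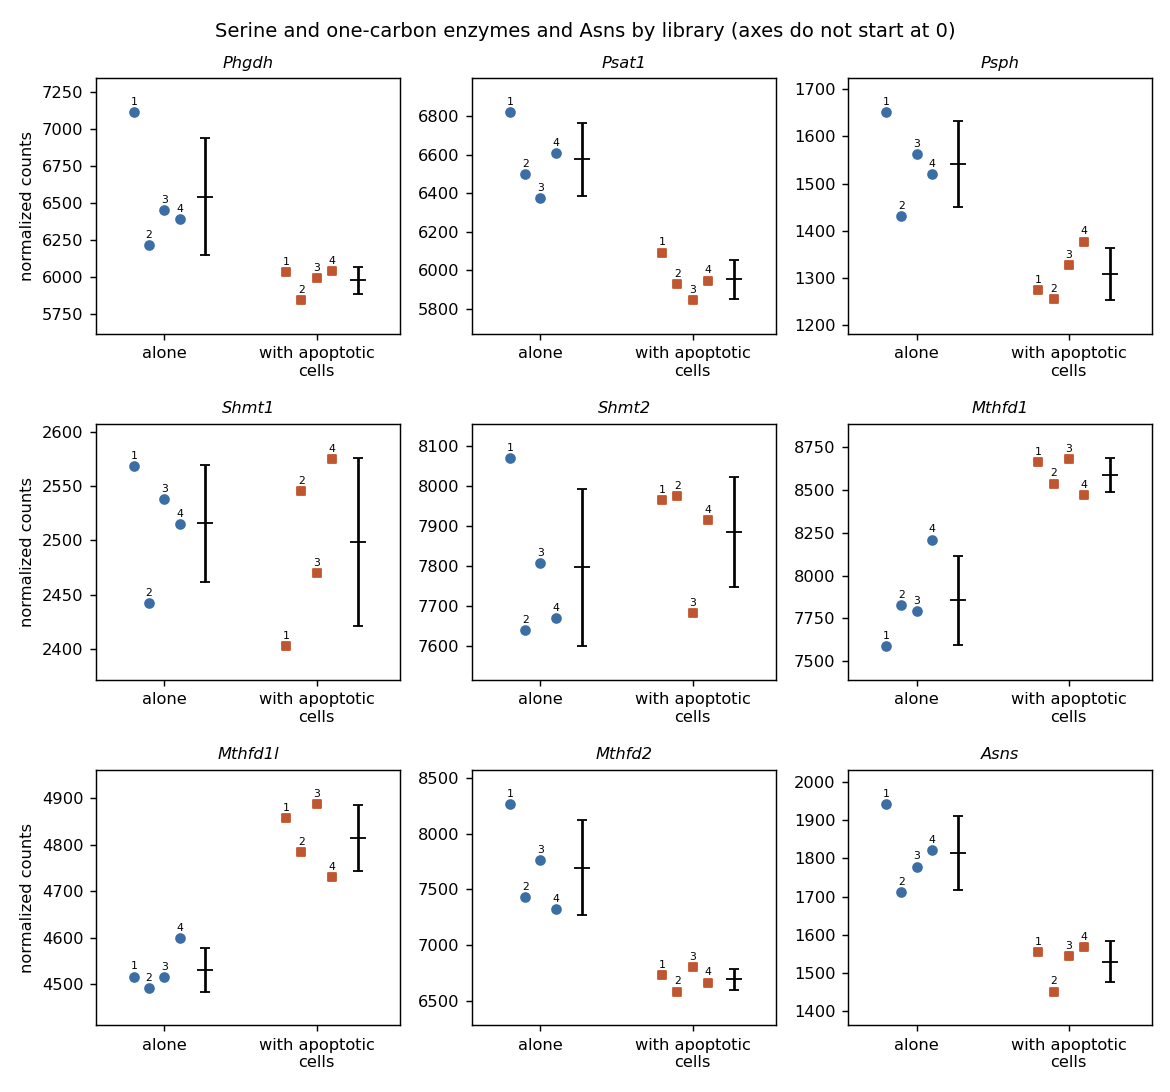
Normalized counts (vertical axes, not starting at 0) of the 9 tested genes in 4 libraries of LR73 cells alone (circles) and 4 with apoptotic cells (squares), with library numbers beside the points and the mean and SD of each group as black bars. The groups separate in 7 genes and overlap in Shmt1 and Shmt2, and alone library 1 is the highest of its group in 7 of the 9.

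Phgdh, the first enzyme of serine synthesis, stood at 7115, 6212, 6454 and 6388 normalized counts in alone libraries 1 to 4. In the co-cultures it stood at 6029, 5842, 5991 and 6037. Every co-culture lay below every library alone, and alone library 1 was far above the rest of its group. The means were 6542 ± 395 and 5975 ± 90.9 (mean ± SD of 4 libraries each). The log2 fold change of -0.13 (SE 0.04) missed the limma threshold (adjusted p = 0.076). It passed without alone library 1 (-0.09, adjusted p = 0.0102, limma) and without alone library 2 (-0.15, adjusted p = 0.049, limma), and over the 15 alternatives this adjusted p ran from 0.0102 to 0.191.

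Psat1, the aminotransferase of the next step, had 6820, 6499, 6372 and 6607 normalized counts alone and 6091, 5929, 5845 and 5946 in co-culture. All co-cultures were again below all libraries alone, and here alone library 1 was only a little above its group. Psat1 fell by 9.44% (95% interval -13.7 to -4.92%), a log2 change of -0.14 with an SE of 0.03 (adjusted p = 0.0171, limma). The call was lost without co-culture library 2, 3 or 4 (adjusted p = 0.0551 to 0.0593, limma).

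Psph, the phosphatase that releases serine in the last step, had 1651, 1431, 1563 and 1520.3 normalized counts alone. With apoptotic cells it had 1273, 1255, 1327 and 1377, and the groups did not overlap. Its level fell by 15.1% (95% interval -21.4 to -8.19%), a log2 change of -0.24 with an SE of 0.05 (adjusted p = 0.0149, limma). This was a larger estimate than for Psat1 and Phgdh, but the 95% intervals of the 3 genes overlap and the difference between them was not tested. The Psph call was lost when alone library 3, co-culture 1 or co-culture 2 was left out (adjusted p = 0.0509 to 0.0566, limma).

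Neither serine hydroxymethyltransferase gene passed the test. Shmt1, the cytosolic enzyme, had 2569, 2442, 2538 and 2515 normalized counts alone and 2403, 2546, 2470 and 2575 in co-culture. The highest and the lowest value of all 8 libraries both belonged to co-cultures. Its log2 fold change was -0.01 (SE 0.04, 95% interval -0.09 to 0.07, adjusted p = 0.875, limma), and the sign turned without co-culture library 1 (0.0081). Shmt2, the mitochondrial enzyme, had 8070.3, 7641, 7807 and 7671 normalized counts alone and 7965, 7976, 7683 and 7915 in co-culture, again with overlap. Its log2 fold change was 0.02 (SE 0.03, adjusted p = 0.767, limma). The 95% interval of -3.49 to 5.97% does not hold the falls estimated for Psat1, Psph, Mthfd2 or Asns.

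Mthfd1, the cytosolic enzyme that carries several activities of folate interconversion, was the member that rose. It had 7591, 7829, 7794 and 8209.6 normalized counts alone and 8659, 8536, 8676 and 8470.4 in co-culture. Every co-culture was above every library alone, and alone library 1 was the lowest of all. Mthfd1 rose by 9.32% (95% interval 4.14 to 14.8%), a log2 change of 0.13 with an SE of 0.03 (adjusted p = 0.0257, limma). The call was lost when library 2 or 3 of the alone group or any single co-culture was left out (adjusted p = 0.0501 to 0.0882, limma).

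Mthfd1l, a mitochondrial enzyme that releases formate from folate, had 4517, 4493, 4516 and 4599 normalized counts alone. In the co-cultures it had 4857, 4785, 4888 and 4731, all above the libraries alone. Alone library 1 did not stand out for this gene. The log2 fold change of 0.09 (SE 0.03) missed the limma threshold (adjusted p = 0.0741) and passed it without alone library 1 (0.09, adjusted p = 0.0133, limma), and over the 15 alternatives this adjusted p ran from 0.0133 to 0.189.

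Mthfd2, the mitochondrial dehydrogenase and cyclohydrolase, moved the other way. It had 8268, 7428, 7764 and 7322 normalized counts alone and 6730, 6584, 6801 and 6665 in co-culture. The co-cultures lay close together below all libraries alone, and the spread was wider among the latter. The means were 7696 ± 425 and 6695 ± 92.6 (mean ± SD of 4 libraries each). Mthfd2 fell by 12.9% (95% interval -18.1 to -7.4%), a log2 change of -0.20 with an SE of 0.04 (adjusted p = 0.0108, limma). It was called under all 15 alternatives, and without alone library 1 the log2 fold change was -0.16.

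Aldh1l2, the mitochondrial formyl-folate dehydrogenase, had 1 read in alone library 4 and 0 reads in the other 7 libraries. A count of 0 allows up to 3 reads, which corresponds to 2.5 to 3.32 normalized counts per library, so both groups were under the limit of detection and no fold is given.

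Asns, which makes asparagine from aspartate and glutamine, showed the largest fall of the members by estimate. It had 1942, 1712, 1778 and 1821 normalized counts alone and 1555, 1452, 1545 and 1568 in co-culture. The 2 groups were well apart, with the lowest library alone above the highest co-culture. Means were 1813 ± 96.6 and 1530.0 ± 53.0 (mean ± SD of 4 libraries each). Asns fell by 15.6% (95% interval -21.4 to -9.35%), a log2 change of -0.24 with an SE of 0.05 (adjusted p = 0.00805, limma), and was called under all 15 alternatives. The estimate without alone library 1 was -0.21.

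**Figure D2:**
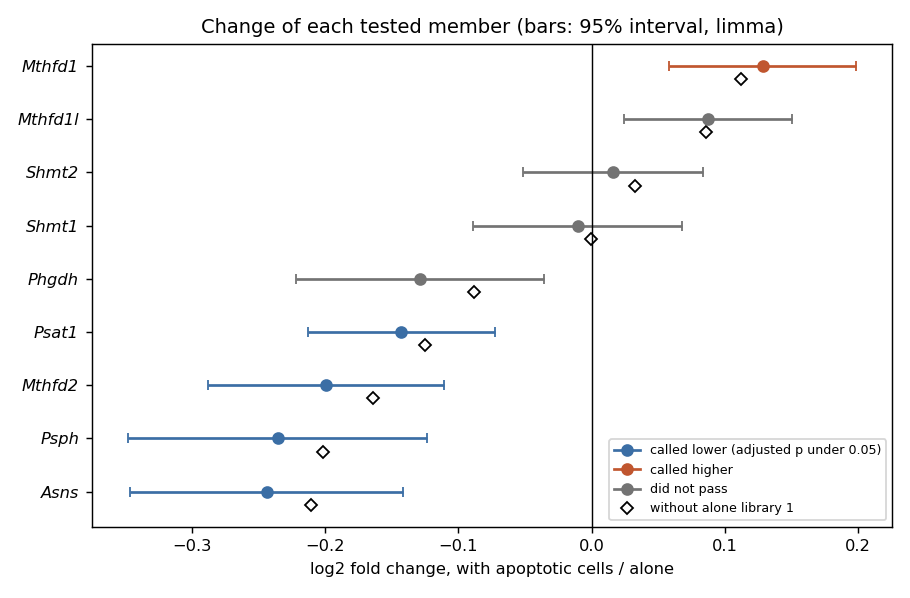
Log2 fold change (horizontal axis, with apoptotic cells over alone) of each tested gene with its 95% interval from limma, and the estimate without alone library 1 as an open diamond. Asns, Psph, Mthfd2 and Psat1 lie below 0 as called genes (-0.24 to -0.14), Mthfd1 above 0 (0.13), and Shmt1 and Shmt2 on either side of 0.

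Alone library 1 moved with the falls. It was the highest alone library for all 4 genes called lower, and stood 0.07 (Psat1) to 0.14 (Mthfd2) above the mean of the other alone libraries on the log2 scale. For Phgdh that gap was 0.16, while for Mthfd1 it was -0.07. Leaving this library out drew the estimates of the called genes towards 0 while their SE shrank, and all 5 calls held (adjusted p = 2.89e-05 to 0.00134, limma).

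**Figure D3:**
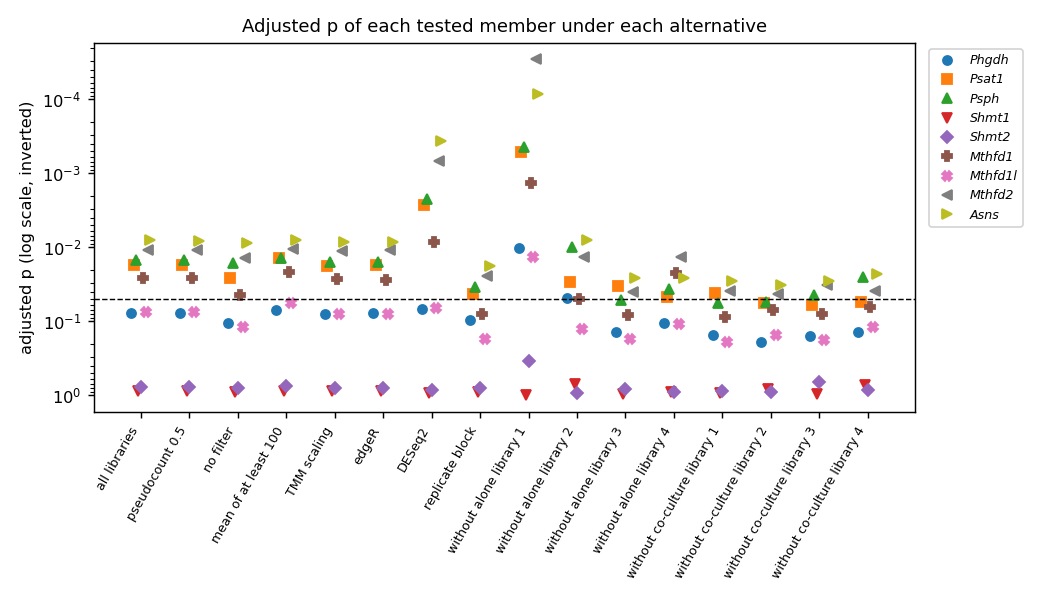
Limma, edgeR or DESeq2 adjusted p (vertical axis, log scale, smaller values higher) of each tested gene with all libraries and under 15 alternatives, with the threshold of 0.05 as a dashed line. Asns and Mthfd2 stay above the line throughout, and Shmt1 and Shmt2 stay far below it. Psat1, Psph and Mthfd1 drop below it when single libraries are left out, Mthfd1 also with the replicate block. Phgdh and Mthfd1l lie below it with all libraries and above it without alone library 1, Phgdh also without alone library 2.

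Mammalian cells hold parallel folate pathways in the cytosol and in mitochondria, so transcripts of matching enzymes were set against each other within each library. Transcript length was not used, so the ratios carry no meaning as levels and only their difference between groups is read. The ratio of Mthfd2 to Mthfd1 was 1.09, 0.949, 0.996 and 0.892 alone and 0.777, 0.771, 0.784 and 0.787 in co-culture. The groups were clearly apart, and the co-cultures nearly alike. The log2 ratio fell by 0.33 (SE 0.06), with an exact permutation p of 0.0286, two-sided, the smallest that 4 against 4 libraries allow. Adjusted over the 3 ratios, this permutation p was 0.0857. A ratio at the smallest p could pass 0.05 after adjustment only if another ratio reached that p too. The adjusted value therefore cannot decide on the size of this fall. Without alone library 1 the log2 difference was -0.28. The ratio combines the changes of Mthfd2 and Mthfd1 given above, so it is no further evidence.

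The ratio of Shmt2 to Shmt1 was 3.14, 3.13, 3.08 and 3.05 alone and 3.31, 3.13, 3.11 and 3.07 in co-culture, with the groups overlapping. Its log2 difference was 0.03 (SE 0.03, exact permutation p = 0.457, two-sided, adjusted p = 0.457). The ratio of Mthfd1l to Mthfd1 was 0.595, 0.574, 0.579 and 0.560 alone and 0.561, 0.561, 0.563 and 0.559 in co-culture. Here alone library 4 lay among the co-cultures. The log2 difference was -0.04 (SE 0.02, exact permutation p = 0.114, two-sided, adjusted p = 0.171).

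**Figure D4:**
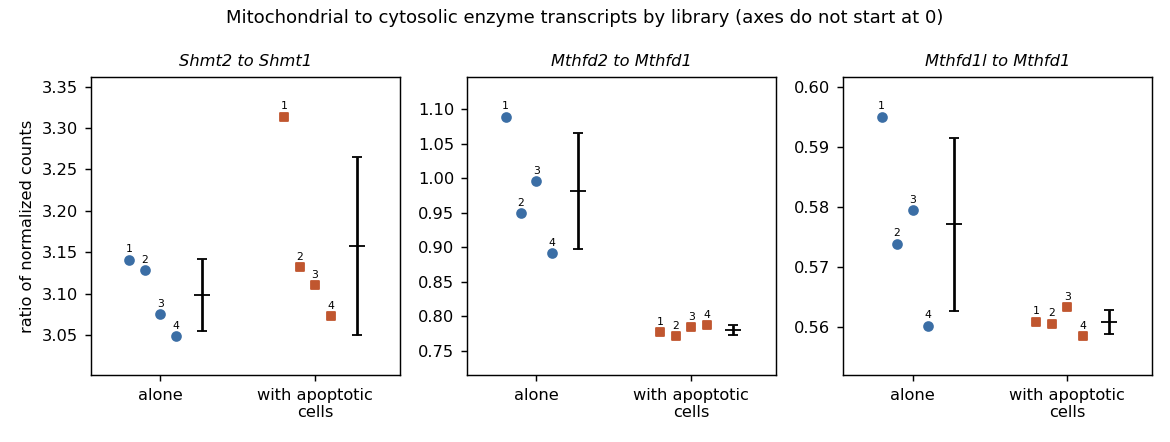
Ratio of normalized counts (vertical axes, not starting at 0) of a mitochondrial to a cytosolic enzyme in each library, with library numbers and the mean and SD of each group. The Mthfd2 to Mthfd1 ratio is 0.892 or more in libraries alone and 0.787 or less in co-cultures, while the other ratios overlap.

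Around these enzymes, the folate transporters Slc19a1 and Slc46a1 rose. Of 14 tested genes of the folate cycle and folate transport, 3 rose and 0 fell by limma (0 lower also by edgeR, by DESeq2 and at an unadjusted p under 0.05), with a median log2 fold change of -0.02. Limma called 6.36% of all genes tested higher and 5.31% lower. Slc19a1, the reduced folate carrier of the plasma membrane, went from 1454 ± 55.9 to 1706 ± 37.4 normalized counts (mean ± SD of 4 libraries each), a log2 change of 0.23 with an SE of 0.04 (adjusted p = 0.00468, limma). Slc46a1, the proton-coupled folate transporter, went from 201 ± 19.3 to 250 ± 6.21, by 0.32 (SE 0.08, adjusted p = 0.0233, limma). Gart, an enzyme of purine synthesis that uses formyl-folate, was named after its values were seen and rose by 0.11 (SE 0.03, adjusted p = 0.0355, limma). Calls of Slc46a1 and Gart were lost when library 2 or 3 of the alone group or any single co-culture was left out, which left 1 rise (adjusted p = 0.0524 to 0.0742 and 0.0638 to 0.114, limma). The Gart call was also lost with no filter on low values (adjusted p = 0.0658, limma).

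Thymidylate synthase and the mitochondrial folate carrier showed no call. Tyms, which makes thymidylate with a folate cofactor, stood at 5852 ± 226 and 5718 ± 213 normalized counts (mean ± SD of 4 libraries each, adjusted p = 0.618, limma). Slc25a32, the carrier, stood at 521 ± 21.2 and 503 ± 45.6 (adjusted p = 0.652, limma). Their log2 fold changes were -0.03 and -0.05, and that of Slc25a32 turned sign without co-culture library 2 (0.013).

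Among 18 tested genes of glycine metabolism and serine uptake and use, only Sars2, the mitochondrial seryl-tRNA synthetase, passed. It went from 3241 ± 133 to 4312 ± 143 normalized counts (mean ± SD of 4 libraries each), a log2 change of 0.41 with an SE of 0.04 (adjusted p = 0.000169, limma). No gene of the list was lower by limma or edgeR, and 1 was by DESeq2. Limma called 6.36% of all genes tested higher and 5.31% lower. At an unadjusted p under 0.05, limma gave 3 higher and 4 lower, against 13.7% and 12.8% of all genes tested. Without alone library 1, 3 were lower by limma, against 12.5% of all genes, and 1 without alone library 2. The mitochondrial serine carrier Sfxn1 stood at 3116 ± 97.0 and 3244 ± 72.4 (adjusted p = 0.316, limma). Gldc, a subunit of the glycine cleavage system, stood at 58.5 ± 7.49 and 71.8 ± 3.33, a log2 fold change of 0.30 (SE 0.12) whose groups did not overlap but which missed the limma threshold (adjusted p = 0.127). The median of the list was 0.009.

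In the methionine cycle and its branch to polyamines, 3 of 15 tested genes fell and 1 rose, against 5.31% and 6.36% of all genes tested. Amd1, which decarboxylates S-adenosylmethionine for polyamine synthesis, fell from 4861 ± 180 to 3269 ± 38.4 normalized counts (mean ± SD of 4 libraries each), a log2 change of -0.57 with an SE of 0.03 (adjusted p = 7.5e-06, limma). Mat2b, a regulatory subunit of methionine adenosyltransferase, fell by 0.22 (SE 0.05, adjusted p = 0.0215, limma), while the catalytic Mat2a stood at 4847 ± 76.4 and 4724 ± 93.9 (adjusted p = 0.464, limma). Nnmt, a methyltransferase of nicotinamide, was named after its values were seen and fell by 0.35 (SE 0.09, adjusted p = 0.0254, limma). Mtrr, which reactivates methionine synthase, rose by 0.19 (SE 0.04, adjusted p = 0.0148, limma). Amd1 kept its call in each fit that left out 1 library.

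The other 3 calls of that list depended on the libraries kept. Mat2b did not pass when alone library 3, alone library 4, co-culture 1 or co-culture 2 was left out (adjusted p = 0.0536 to 0.0686, limma), nor did Nnmt when alone library 3 or any single co-culture was left out (0.0528 to 0.0798). Mtrr missed the threshold when alone library 3 or co-culture 1 was left out (adjusted p = 0.0503 to 0.0577, limma). Without alone library 1, 3 genes of the list rose and 3 fell, against 13.4% and 12.5% of all genes. The count of falls became 1 when alone library 3, co-culture 1 or co-culture 2 was left out. The median of the list was -0.04 with all libraries and 0.005 without alone library 1.

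Of 16 tested genes of other amino acid synthesis, Got1 alone was called. Got1, the cytosolic aspartate aminotransferase, rose from 4675 ± 299 to 5346 ± 95.1 normalized counts (mean ± SD of 4 libraries each), a log2 change of 0.20 with an SE of 0.04 (adjusted p = 0.0182, limma). It missed the threshold when alone library 3, alone library 4 or co-culture 1, 3 or 4 was left out (adjusted p = 0.0528 to 0.062, limma). Lower calls numbered 0 by limma and edgeR, and 1 by DESeq2. Limma called 6.36% of all genes tested higher and 5.31% lower. At an unadjusted p under 0.05, limma gave 3 higher and 2 lower, against 13.7% and 12.8% of all genes tested. Without alone library 1, 3 genes rose and 3 fell by limma, against 13.4% and 12.5% of all genes. Without co-culture library 3 or 4, 1 gene of the list fell. The median of the list was -0.06.

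Of 23 tested regulators and effectors of the Atf4 response, 9 fell, 14 did not pass and 0 rose by limma (0 higher also by edgeR, by DESeq2 and at an unadjusted p under 0.05), with a median log2 fold change of -0.10. Limma called 5.31% of all genes tested lower and 6.36% higher. This list, like the others, was chosen with earlier results of these data known. Of the 23 estimates, 17 lay below 0 and 6 above. Atf4 itself stood at 6972 ± 613 and 4669 ± 57.0 normalized counts (mean ± SD of 4 libraries each) with a log2 change of -0.57 and an SE of 0.05 (adjusted p = 0.000135, limma). Alone library 1 was 0.24 above the rest of its group for Atf4, and without it the fall was 0.51. Ddit3, the stress factor CHOP, fell by 0.40, the stress gene Nupr1 by 0.71 and the pseudokinase gene Trib3 by 1.04. The count of 9 became 6 without co-culture library 1, 2 or 3. It became 11 without alone library 1, where 12.5% of all genes were called lower. Of the members named above as Atf4 targets, Asns, Psph, Psat1 and Mthfd2 fell, while Phgdh and Shmt2 did not pass. Among the tested members not named there, Mthfd1 rose, and Shmt1 and Mthfd1l did not pass. That naming is not a full list of Atf4 targets, so this is no contrast of targets with other genes. For Mthfd1l the estimate was 0.09 (adjusted p = 0.0741, limma), with every co-culture above every library alone. Whether Atf4 had a part in the changes of the enzymes was not tested.

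Other regulators linked to serine synthesis gave different values. Nfe2l2, which encodes the oxidative stress factor NRF2, fell from 6580.0 ± 52.8 to 5843 ± 84.9 normalized counts (mean ± SD of 4 libraries each), a log2 change of -0.17 with an SE of 0.03 (adjusted p = 0.00343, limma). Myc, listed under a LOC number and named through RefSeq, stood at 4521 ± 285 and 4519 ± 423 (log2 fold change -0.003, SE 0.07, adjusted p = 0.982, limma). The sign of the Myc value turned in 5 of the 8 fits that left out 1 library.

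**Figure D5:**
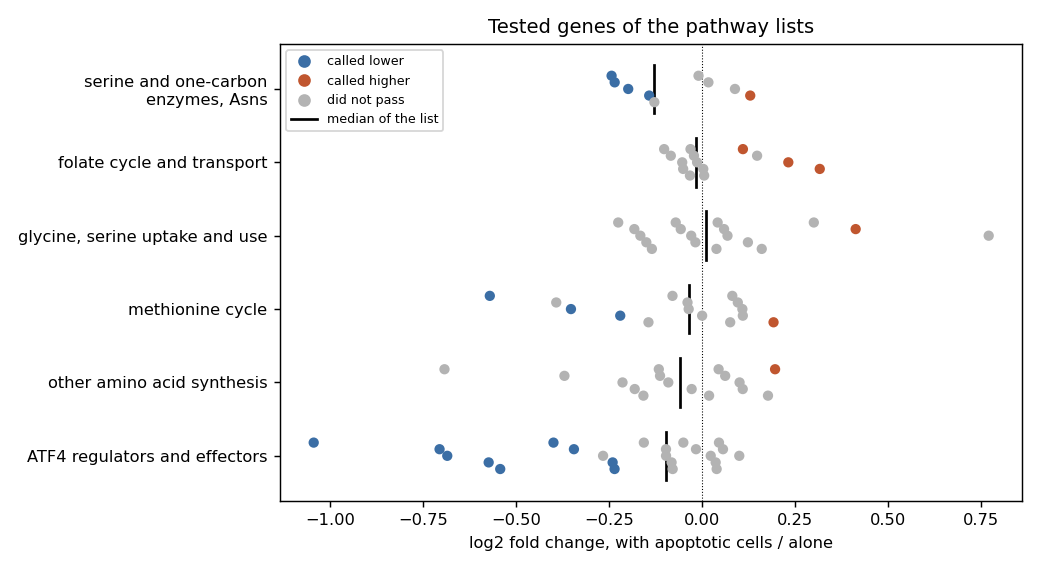
Log2 fold change (horizontal axis, with apoptotic cells over alone) of each tested gene in the described set and in 5 lists of neighbouring pathways, coloured by the limma call, with the median of each list as a black line. In the Atf4 list 9 of 23 genes are called lower and 0 higher, while in the folate list 3 of 14 are called higher and 0 lower. Over all genes tested, 5.31% are called lower and 6.36% higher. The described set and the lists were chosen with earlier results of these data known.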

How the data were processed

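RNA was sequenced from 8 libraries. The submitters' processing notes name STAR, featureCounts, DESeq2 and FastQC with no version. Genome build, annotation and strand setting: not given in the sources used here. The deposited table holds a signal per library that is read counts over a size factor, as its values show. For each library 100% of values were whole multiples of 1 read (tolerance 0.01), so reads were recovered. A row without a gene name (0.14 to 0.176% of reads) was left out. The authors also deposited a mean signal, log2 fold changes drawn towards 0, a test score and p-values, of which only their calls are cited.

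Genes averaging 10 or more normalized counts were tested with limma 3.58.1 (R 4.3.3) on log2(normalized count + 1), with a trend, group as the only term and Benjamini-Hochberg adjustment over all tested genes, at 0.05. Fold changes on this scale understate those of low genes. edgeR 4.0.16 and DESeq2 1.42.0 were run on recovered reads. Other alternatives were a pseudocount of 0.5, no filter, a mean of at least 100, TMM scaling, a replicate block and leaving out each library. The steps were tested on simulated data. Ratios were compared by exact permutation (scipy 1.17.1), and figures drawn with matplotlib 3.10.9.

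The genes and lists were chosen with earlier results of these data known. Named genes were all 10 members, a fixed set (Atf4, Ddit3, Trib3, Myc, Nfe2l2, Tyms, Slc25a32, Sfxn1, Gldc, Mat2a) and, per list, up to 2 called higher and 2 called lower with the smallest p. Other genes of the fixed set are not reported here. Myeloid and epithelial markers summed to 37.0 to 70.9 and 194 to 255 normalized counts per library. Reads of human transcripts that resemble hamster genes could be counted with them, and near-identical gene copies can share reads. No positions are given, since the build is not known.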

Additional observations from a re-analysis of the deposited data

Results flagged for a closer look

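The mitochondrial folate carrier Slc25a32 had 436 normalized counts in co-culture library 2, where the nearest of the other co-cultures had 519. The gap was 0.835 of the range of the group, above Dixon's 95% critical value. Chance marks about 1 in 20 groups in this way, and 58 groups of 4 libraries were examined. Without that library the log2 fold change of Slc25a32 was 0.013 in place of -0.05.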

How the results depend on the processing

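Of 135 refits of the 9 tested members, 118 kept direction and side of the threshold, 13 lost a call, 3 gained one and 1 turned sign. Over left-out libraries, members called higher ran from 0 to 2 and lower from 2 to 5, all genes higher from 416 to 1811 (alone library 1 giving the latter) and lower from 356 to 1694. Over the same fits, the folate list gave 1 to 3 higher, glycine and serine use 0 to 3 lower, the methionine cycle 0 to 3 higher and 1 to 3 lower, other amino acid synthesis 0 to 3 higher and 0 to 3 lower. With no filter, 2 genes of other amino acid synthesis were higher; DESeq2 called 1 lower there and 1 lower in glycine and serine use. The cause was not tested. With the replicate block, 498 genes were higher and 400.0 lower, members higher 0 (Mthfd1, limma adjusted p = 0.0807) and methionine cycle genes higher 0. Libraries sharing a number correlated at -0.09 to 0.07, so the numbers were not taken as pairs; the block changed no call of the other 8 tested members, and among the other named genes it ended those of Gart, Mat2b and Mtrr (limma adjusted p = 0.0867, 0.0701 and 0.0542). Over left-out libraries, log2 fold changes that turned sign ran from -0.025 to 0.0081 (Shmt1, turned without co-culture 1), -0.085 to 0.013 (Slc25a32, without co-culture 2) and -0.065 to 0.034 (Myc, without alone library 1 or 3, or co-culture 1, 3 or 4). TMM scaling moved the median of all genes by -0.001. The 9 tested members had at least 1135 reads in every library, and their SE ran from 0.03 to 0.05.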
